A study of Xiphophorus maculatus with 24 samples.

Results

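Skin RNA of male Xiphophorus maculatus Jp 163 A, an inbred platyfish line, was sequenced in separate collections that shared the clock times 8AM, 2PM, 8PM and 2AM. The question here is how far the daily time course of a transcript differed between the collections. The libraries were chosen by their labels: every library whose clock time occurs in both collections, with 2 libraries at each clock time and collection, which gives 16 of the 24 libraries of the series. In the earlier collection 8 libraries came from fish labelled as 24 months old, and in the later one 8 libraries came from fish labelled as 12 months old. They are called 24-month fish and 12-month fish here, although the study's methods give a single age for all fish. All fish were untreated adult males. The study's methods give 13 h of light and 11 h of dark, with flake food at 8AM and brine shrimp at 3 PM. The latter feeding falls between the 2PM and the 8PM samples. The methods do not name the collections, so whether these conditions held in both is not known. The names of 12-month libraries also hold a number after the species code and a day mark, which those of 24-month libraries lack. What the number stands for is not given in the labels. The labelled age, the date and these marks in the library names changed together with the collection. Age, date and whatever else differed between the collections therefore cannot be told apart. The other 8 libraries, also of 24-month fish, were taken at 5AM, 11AM, 5PM and 11PM and served as a separate look at that collection.

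Animal cells keep daily time with a feedback loop in which Clock and Arntl (Bmal) proteins switch on per and cry genes, whose products then block Clock and Arntl. In zebrafish, peripheral tissues sense light directly, and per2 is a light-induced gene. Daily rhythms outside the clock often follow feeding: in mammals, transcripts of protein folding and lipid synthesis are high in fed cells, and transcripts of fatty acid oxidation and muscle protein breakdown are high in fasting. Roles given for genes below are those known from mammals and zebrafish.

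The 16 libraries held between 25927255 and 36066368 counts over 24209 genes, and 19550 genes had enough counts to be tested. The median absolute log2 difference between the 2 libraries of a group ran between 0.17 and 0.36 in 24-month fish and between 0.12 and 0.16 in 12-month fish. The pair at 2AM in 24-month fish stood furthest apart (0.36). Its replicate C was most like an 8PM library and its replicate D was most like an 8AM library of the same collection. Keratinocyte markers (9 of 9 above 1 CPM, counts scaled to equal library size) summed to 22578 to 44806 CPM in 24-month fish and 39969 to 46340 CPM in 12-month fish, and skeletal muscle markers (25 of 26 above 1 CPM) summed to 5232 to 20176 CPM in 24-month fish and 5354 to 10789 CPM in 12-month fish. In bulk tissue, fewer cells of a type and less RNA per cell cannot be told apart.

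The time course differed in shape between the collections for 2302 of 19550 genes, a share of 11.8%. This is the interaction of library year with clock time, which takes out any constant difference between the collections (edgeR quasi-likelihood F test, 3 degrees of freedom, Benjamini-Hochberg adjusted p below 0.05). At an unadjusted p below 0.05 there were 5710 genes. Just inside the threshold lay si:dkeyp-94b4.1 (adjusted p 0.0499918), and just outside it srp68 (0.0500161). A narrower test of the 24-h cosine part alone, which holds changes of amplitude and of peak hour, called 1318 genes, 6.74% of those tested, of which 1289 were among the 2302.

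The collections parted mainly at 8PM. For each gene and clock time, the deviation is the log2 difference 24-month minus 12-month at that time minus the mean of the 4 differences. The 4 deviations of a gene therefore sum to 0. A downward deviation can go with a higher level in 24-month fish at that time, and an upward one with a lower level. At 8AM, 9 genes deviated upward in 24-month fish (0.046%) and 0 downward (0%). This split rested on single libraries, with 38 upward and 171 downward without 12-month 8AM replicate B. At 2PM the counts were 233 upward (1.19%) and 314 downward (1.61%). These 2PM calls also rested on single libraries. Nearly all of them were lost without 12-month 2PM replicate A or B, or 24-month 2PM replicate C. They became more numerous without 24-month 2AM replicate C or D. At 8PM the counts were 1623 upward (8.3%) and 2073 downward (10.6%), and at 2AM 0 upward (0%) and 2 downward (0.0102%). At an unadjusted p below 0.05 the counts at 8AM, 2PM, 8PM and 2AM were 2321, 4030, 6198 and 1817. The median absolute deviation over all genes tested was 0.19 at 8AM, 0.24 at 2PM, 0.32 at 8PM and 0.19 at 2AM, and 1795 of the 2302 interaction genes had their largest deviation at 8PM.

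The time at which the course parted was not the time with the most plain differences. The difference 24-month minus 12-month itself was called for 6062 genes at 8AM (31%), 5110 at 2PM (26.1%), 4572 at 8PM (23.4%) and 4422 at 2AM (22.6%).

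**Figure D1:**
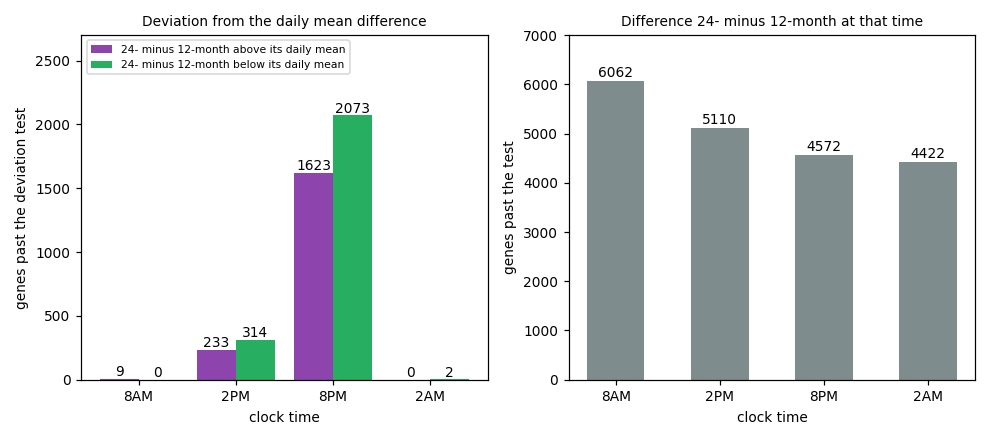
Genes past the test (y axis, counts of genes) at each clock time (x axis). The left panel counts deviations of the difference 24-month minus 12-month above (purple) or below (green) its mean over the 4 times, with most calls at 8PM (1623 and 2073), and the right panel counts plain differences, with most at 8AM (6062).

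At 8PM and 2PM the deviations ran in opposite directions. Genes that deviated upward at 8PM had a median deviation of -0.15 at 8AM, -0.40 at 2PM and -0.16 at 2AM. Genes that deviated downward at 8PM had a median deviation of 0.22 at 8AM, 0.30 at 2PM and 0.18 at 2AM. Because the deviations sum to 0, some opposite sign elsewhere is built in.

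How many genes were called depended on single libraries, while 8PM kept the most deviation calls in each fit. Leaving out each of the 16 libraries in turn gave between 249 interaction genes (without 12-month 8PM replicate A, 246 of them among the 2302) and 6561 (without 24-month 2AM replicate C, which held all 2302). Without 24-month 8PM replicate C there were 603, and without 24-month 2AM replicate D there were 4289. The fit without 24-month 2AM replicate C also called 2935 deviations at 2AM, against 6069 at 8PM. Of the 84 genes chosen by rule, 43 were called in all 16 fits.

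Daily waves were compared by fitting a 24-h cosine to the log2 CPM of each collection. Its amplitude is the log2 distance from mid-level to peak, and its peak is given as an hour of the 24-hour clock. Of the 2302 genes, 456 (19.8%) had an amplitude of at least 0.5 in both collections and peak hours at least 3 h apart. In 47 (2.04%) the amplitude was larger by at least 0.5 in 24-month fish, and in 112 (4.87%) it was larger in 12-month fish. The remaining 1687 (73.3%) fell in no such class. Over all 19550 genes tested, the same rules gave 681 peak shifts, 270 larger waves in 24-month fish and 437 in 12-month fish. Most genes that met either amplitude rule thus did not pass the interaction. These classes describe the libraries that gave the calls and carry no test of their own.

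Nearly all peak shifts went one way. The peak was earlier in 24-month fish in 444 of the 456 genes and later in 12. The median advance among the 444 was 4.18 h, with quartiles of 3.61 and 5.15 h. The genes with a shifted peak formed a day group and a night group. In the day group, 221 genes peaked between 9AM and 6PM in 24-month fish, 215 of them between 3PM and midnight in 12-month fish, with median peak hours of 13.8 in 24-month fish and 18.4 in 12-month fish. In the night group, 219 genes peaked between 9PM and 6AM in 24-month fish, 215 of them between 3AM and noon in 12-month fish, with median peak hours of 1.81 in 24-month fish and 5.96 in 12-month fish. A count without the interaction test used the same libraries and includes the 444 and the 12 genes, so it is no separate support. Of all 1276 genes with an amplitude of at least 0.5 in both collections, 636 peaked at least 3 h earlier in 24-month fish. Another 45 peaked at least 3 h later, and 353 lay within 2 h.

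**Figure D2:**
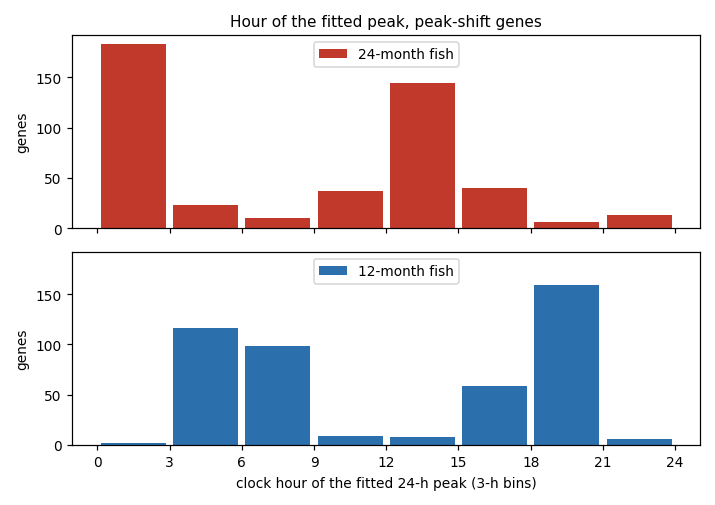
Number of peak-shift genes (y axis) by the clock hour of the fitted peak in 3-h bins (x axis), 24-month fish above and 12-month fish below. The 456 genes peaked mainly at 0 to 3 h (183) and 12 to 15 h (144) in 24-month fish, and mainly at 3 to 9 h (116 and 98) and 18 to 21 h (159) in 12-month fish.

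The named genes of the night group were lowest at 2PM in 24-month fish and at 8PM in 12-month fish. The gene pik3ip1, an inhibitor of PI3-kinase, had 41.1 and 42.2 CPM at 8AM, 8.10 and 10.23 at 2PM, 86.1 and 60.2 at 8PM and 91.5 and 52.9 at 2AM in 24-month fish. In 12-month fish pik3ip1 had 75.8 and 79.6 CPM at 8AM, 73.0 and 53.8 at 2PM, 11.9 and 22.2 at 8PM and 86.8 and 105 at 2AM. The collections did not overlap at 8AM, 2PM or 8PM, and the higher one at 2PM was the lower one at 8PM. With 2 libraries a group, lack of overlap is a description and no test, here and below. Most genes named were picked for small p or large deviations in these same libraries, and the share of all genes without overlap was not counted. The deviation of pik3ip1 was -2.30 ± 0.28 (SE) at 2PM and 2.56 ± 0.28 at 8PM on the log2 scale, with edgeR adjusted p of 0.0145 and 0.000642. Its fitted peak was at 0.982 h in 24-month fish and 6.99 h in 12-month fish.

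KLHL24B, whose mammalian relative is an adaptor of a ubiquitin ligase, followed the same course. At 2PM it had 14.4 and 25.8 CPM in 24-month fish, against 64.6 and 67.4 CPM in 12-month fish. At 8PM KLHL24B had 231 and 141 CPM in 24-month fish, against 16.6 and 25.8 CPM in 12-month fish. The order of the collections turned between these times, with an 8PM deviation of 2.77 ± 0.29 (adjusted p 0.000607), the largest upward one among genes with a symbol and a mean of at least 5 CPM. pcmtd1 came next, with 82.0 and 49.8 CPM in 24-month fish, against 8.89 and 14.3 CPM in 12-month fish at 8PM. Its deviation was 2.74 ± 0.29 (adjusted p 0.000607).

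A gene of muscle wasting and one of sterol synthesis belonged to the same group. fbxo32, the ubiquitin ligase atrogin-1, had 1.76 and 4.78 CPM in 24-month fish, against 16.7 and 11.8 CPM in 12-month fish at 2PM. At 8PM fbxo32 had 26.5 and 13.0 CPM in 24-month fish, against 4.73 and 5.71 CPM in 12-month fish. The collections did not overlap at either time, and the interaction (adjusted p 0.0161) was lost without 12-month 8PM replicate A (adjusted p 0.0736). fdft1, squalene synthase, had 9.38 and 11.1 CPM in 24-month fish, against 27.9 and 28.5 CPM in 12-month fish at 2PM. At 8PM fdft1 had 56.8 and 43.7 CPM in 24-month fish, against 10.5 and 12.9 CPM in 12-month fish. Here too the order turned, with an 8PM deviation of 2.30 ± 0.26 (adjusted p 0.000682). The 8PM deviations of CTDSPLA, ggcx (the vitamin K-dependent carboxylase), zgc:114045 and si:dkey-239i20.2 were 0.97, 0.90, 1.06 and 1.72.

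hyou1, GDE1 and agps, of the day group, were highest at 2PM in 24-month fish and at 8PM in 12-month fish. hyou1, a chaperone of the endoplasmic reticulum (ER), had 158 and 133 CPM in 24-month fish, against 80.2 and 70.09 CPM in 12-month fish at 2PM. At 8PM hyou1 had 49.3 and 74.4 CPM in 24-month fish, against 138 and 128 CPM in 12-month fish. The order of the collections was opposite at these times, with an 8PM deviation of -1.43 ± 0.21 (adjusted p 0.00149). Its interaction (adjusted p 0.0103) was lost without 12-month 8PM replicate A (0.0658) and without 24-month 8PM replicate C.

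GDE1, a glycerophosphodiester phosphodiesterase, shared the smallest adjusted interaction p (0.00212) among the peak-shift genes named. It had 78.8 and 68.8 CPM in 24-month fish, against 31.3 and 30.1 CPM in 12-month fish at 2PM. At 8PM GDE1 had 28.4 and 36.4 CPM in 24-month fish, against 60.8 and 55.2 CPM in 12-month fish. Its 8PM deviation was -1.41 ± 0.12 (adjusted p 0.000449), and its peak lay at 13.9 h in 24-month fish and 19.3 h in 12-month fish. agps, an enzyme of ether lipid synthesis, had 138 and 117 CPM in 24-month fish, against 82.2 and 79.6 CPM in 12-month fish at 2PM. At 8PM agps had 74.6 and 69.9 CPM in 24-month fish, against 131 and 124 CPM in 12-month fish. Both genes were among the 8 of their class chosen for the smallest p in these same libraries.

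**Figure D3:**
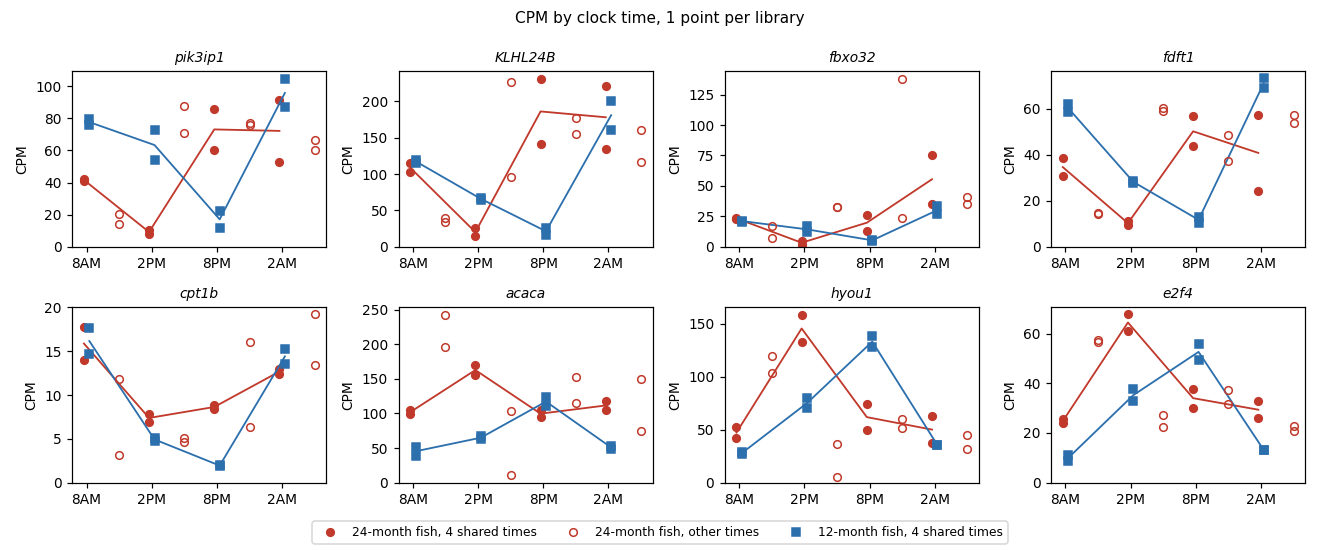
CPM (y axis, from 0) by clock time (x axis) for 8 named genes, 1 point per library, lines through the means of the 2 libraries. Red filled points are 24-month fish, red open points are 24-month fish at the other times (5AM at the right end), and blue squares are 12-month fish. pik3ip1, KLHL24B, fbxo32 and fdft1 were lowest at 2PM in 24-month fish and at 8PM in 12-month fish, and hyou1 and e2f4 were highest at 2PM in 24-month fish and at 8PM in 12-month fish.

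The largest downward 8PM deviations, of klf9, mars and ATAD3A, came with uneven replicates. klf9, a glucocorticoid-induced transcription factor, had 2.79 and 5.99 CPM in 24-month fish, against 6.99 and 11.1 CPM in 12-month fish at 8PM. At 2AM klf9 had 18.6 and 122 CPM in 24-month fish, against 1.11 and 1.06 CPM in 12-month fish. The pair of 24-month libraries at 2AM differed widely. The 8PM deviation of klf9 passed (-3.04 ± 0.63, adjusted p 0.00683). The 2AM deviation did not pass (4.11 ± 0.68, adjusted p 0.142), although it was larger beside its SE. Each clock time was adjusted on its own, and deviations with an unadjusted p below 0.05 were fewer at 2AM (1817) than at 8PM (6198). mars, methionyl-tRNA synthetase, had 11.0 and 38.7 CPM in 24-month fish, against 85.2 and 65.7 CPM in 12-month fish at 8PM. ATAD3A, a mitochondrial membrane ATPase, had 8.30 and 22.3 CPM in 24-month fish, against 68.4 and 51.3 CPM in 12-month fish at 8PM. The groups did not overlap, but the interaction of mars and of ATAD3A was lost in 12 and 13 of the 16 fits, with adjusted p of up to 0.133 and 0.158 (both without 24-month 8PM replicate C).

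The other libraries of 24-month fish gave a look at the peak hour that the interaction had not used. pik3ip1 had 14.2 and 20.2 CPM at 11AM and 71.2 and 87.6 CPM at 5PM there. KLHL24B had 34.1 and 39.5 CPM at 11AM and 95.7 and 227 CPM at 5PM. Low values of both genes thus ran over 11AM and 2PM in this collection. Of the 456 peak-shift genes, 241 had an amplitude of at least 0.5 in these 8 libraries, and the peak lay nearer to that of the other 24-month libraries than to that of 12-month fish in 224 of them (92.9%). Their median peak came 1.99 h before that of the 4 shared times in 24-month fish and 5.94 h before that in 12-month fish. Over all 699 genes with such an amplitude in all 3 sets of libraries, the peak lay nearer to the 24-month one in 535 (76.5%).

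The edgeR test of a 24-h wave in these 8 libraries called 0 of 18769 genes (0%). At an unadjusted p below 0.05 there were 894 genes, 38 of them peak-shift genes, and DESeq2 called 150 genes, 2 of them peak-shift genes. One library, 24-month 5PM replicate A, had a rank correlation of 0.881 with its replicate. Without it the wave test called 16 genes, and 168 of 176 peak-shift genes (95.5%) lay nearer to the 24-month peak.

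Clock genes mostly kept their hour. The lists of clock activators, repressors, nuclear receptors with bhlhe factors, PAR bZIP with nfil3 factors, and photolyases held 34 genes tested, of which 9 passed the interaction (26.5%, beside 11.8% of all genes) and 25 did not. A wave of amplitude 0.5 or more in both collections was found in 28 of the 34. Their peak hours differed by a median of 0.61 h between collections, and 25 of the 28 lay within 2 h, where the median over all 1276 genes with such waves was 3.16 h. The other 3, each at least 3 h apart, were the genes named per2 and PER2, and nfil3-6. The clock genes and the 1276 genes were not matched for amplitude, and a small wave fixes its peak hour less closely. Most of the 28 had amplitudes above 1 in both collections. Raising the amplitude threshold from 0.5 to 1 cut the peak shifts among interaction genes from 456 to 29. Genes with an amplitude of at least 1 in both collections were not counted. The drop therefore does not tell how often large waves shifted. The difference between the medians was not tested.

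The gene named per2 (ENSXMAG00000016174) had the largest upward deviation at 8AM among genes with a symbol and a mean of at least 5 CPM. In 24-month fish it had 118 and 48.7 CPM at 8AM, 33.1 and 39.3 at 2PM, 19.8 and 20.2 at 8PM and 4.39 and 8.82 at 2AM. In 12-month fish it had 3.10 and 3.69 CPM at 8AM, 33.6 and 26.5 at 2PM, 54.8 and 43.9 at 8PM and 2.14 and 1.59 at 2AM. Of the 4 times, 8AM was the highest in 24-month fish, while 8PM was the highest in 12-month fish. The deviation was 3.29 ± 0.37 at 8AM (adjusted p 0.0131) and -2.70 ± 0.35 at 8PM (adjusted p 0.000896). In the other libraries of 24-month fish it had 7.21 and 3.84 CPM at 5AM and 88.5 and 101 CPM at 11AM. The study's methods do not give the clock hour at which the lights came on.

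The gene named PER2 (ENSXMAG00000006651), a second gene of that name in the table, also had an earlier fitted peak in 24-month fish. The fitted peak was at 12.1 h in 24-month fish and 15.5 h in 12-month fish. In the other libraries of 24-month fish PER2 had 166 and 142 CPM at 11AM, a time not sampled in 12-month fish. It had 126 and 139.7 CPM in 24-month fish, against 29.6 and 35.4 CPM in 12-month fish at 8AM. At 8PM PER2 had 76.8 and 56.6 CPM in 24-month fish, against 82.2 and 76.4 CPM in 12-month fish. The groups overlapped at 8PM but not at 8AM. The 8PM deviation passed the test (-1.06 ± 0.23, adjusted p 0.00858) and that at 8AM did not (1.29 ± 0.23, adjusted p 0.0855). The adjustment was made within each clock time, and deviations with an unadjusted p below 0.05 were fewer at 8AM (2321) than at 8PM (6198). nfil3-6, of a family that represses PAR bZIP targets, had 128 and 57.8 CPM in 24-month fish, against 28.2 and 37.5 CPM in 12-month fish at 8AM and did not pass the interaction (adjusted p 0.0859). Both genes named for per2 were called in all 16 fits that left out a library.

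**Figure D4:**
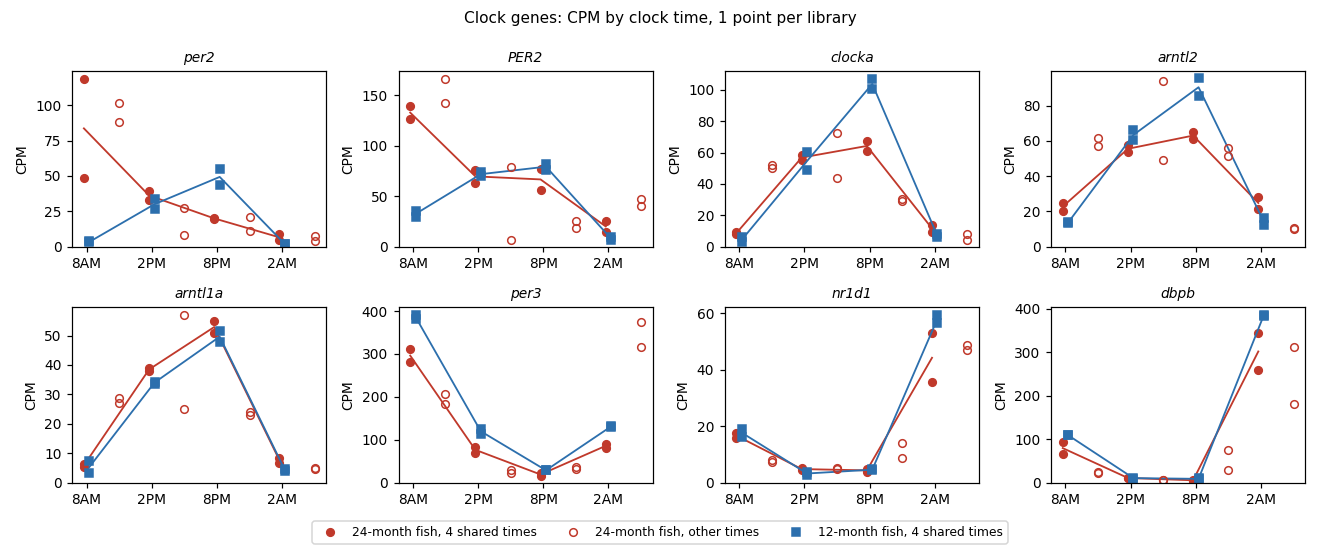
CPM (y axis, from 0) by clock time (x axis) for 8 clock genes, 1 point per library, with symbols and lines as in the plot of 8 named genes. The upper row (per2, PER2, clocka, arntl2) passed the interaction, with per2 at 118 and 48.7 CPM in 24-month fish, against 3.10 and 3.69 CPM in 12-month fish at 8AM. The lower row (arntl1a, per3, nr1d1, dbpb) did not pass.

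The activators clocka and arntl2 differed in amplitude more than in hour. clocka had 67.1 and 61.2 CPM in 24-month fish, against 107 and 100.5 CPM in 12-month fish at 8PM. Its amplitude was 1.80 in 24-month fish and 2.65 in 12-month fish, and its peak was at 17.4 h in 24-month fish and 17.8 h in 12-month fish. In the other libraries of 24-month fish clocka had 4.08 and 8.23 CPM at 5AM. Both lay below every library at the shared times in that collection (8.35 CPM or more). The interaction (adjusted p 0.0237) was lost in 5 of the 16 fits, with an adjusted p of up to 0.104 (without 12-month 8PM replicate A). arntl2 had 65.1 and 61.0 CPM in 24-month fish, against 85.4 and 95.6 CPM in 12-month fish at 8PM. Its amplitude was 0.93 in 24-month fish and 1.71 in 12-month fish, its peak was at 17.4 h in both, and its interaction (adjusted p 0.0104) held in all 16 fits. At 5AM the other libraries of 24-month fish had 9.82 and 10.7 CPM of arntl2. These lay below every library at the shared times in that collection (20.5 CPM or more), so its wave there was wider than the shared times show. CLOCKB went the other way at 8PM, with 104 and 85.0 CPM in 24-month fish, against 56.9 and 69.97 CPM in 12-month fish, but that deviation did not pass (adjusted p 0.0624). It was lower in 24-month fish at 2PM, a deviation of -0.66 ± 0.15 that passed (adjusted p 0.0392). The CLOCKB interaction (adjusted p 0.0419) was lost in 12 of the 16 fits, with an adjusted p of up to 0.163 (without 24-month 2PM replicate C).

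Output factors were mixed. nfil3-5 had 30.7 and 38.5 CPM in 24-month fish, against 90.01 and 92.3 CPM in 12-month fish at 2PM, a deviation of -1.17 ± 0.20 (adjusted p 0.022). Its peak was at 15.3 h in 24-month fish and 15.2 h in 12-month fish, and its interaction was lost without 12-month 8PM replicate A (adjusted p 0.0527). hlfa, a PAR bZIP activator, had 274 and 259.6 CPM in 24-month fish, against 444 and 451 CPM in 12-month fish at 8PM. The hlfa interaction (adjusted p 0.0128) was lost without the same library (0.0683). nr1d2b, a Rev-erb nuclear receptor, and nfil3 passed with adjusted p of 0.0268 and 0.0359, and were lost in 10 and 11 of the 16 fits, with adjusted p of up to 0.116 and 0.138 (both without 12-month 8PM replicate A).

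Among clock genes that did not pass, per3 (adjusted p 0.703) peaked at 7.84 h in 24-month fish and 7.86 h in 12-month fish. dbpb, a PAR bZIP activator (0.362), peaked at 4.56 h in 24-month fish and 4.32 h in 12-month fish. arntl1a (0.349) peaked at 17.6 h in 24-month fish and 17.2 h in 12-month fish. These peaks lay within 1 h of each other, which is a description and does not show that the courses were alike. The photolyase list held cry-dash and zgc:66475, with interaction adjusted p of 0.104 and 0.0535.

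Of the 25 clock genes that did not pass the interaction, 6 passed the 8PM deviation. Of all 19550 genes tested 3696 passed it, and 819 upward and 1228 downward ones of these were interaction genes. No result about clock genes as a set is drawn from the 6. The photolyases cry-dash and zgc:66475 deviated by -0.40 and -0.33 (adjusted p 0.036 and 0.0412), and nfil3-6 by -1.53 (adjusted p 0.0498). per1b, a repressor, nr1d4b, a Rev-erb-related receptor, and bhlhe40, a repressor, deviated upward by 0.79, 0.84 and 0.57 (adjusted p 0.0258, 0.0213 and 0.0411).

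Genes with a larger wave in 12-month fish included cpt1b and cpt1ab, carnitine palmitoyltransferases, which bring fatty acids into mitochondria. cpt1b had 8.36 and 8.91 CPM in 24-month fish, against 2.04 and 1.85 CPM in 12-month fish at 8PM, where the groups were apart, and overlapped at 8AM. Its 8PM deviation was 1.47 ± 0.15 (adjusted p 0.000607), and its amplitude was 0.56 in 24-month fish and 1.56 in 12-month fish. In the other libraries of 24-month fish cpt1b had 13.4 and 19.2 CPM at 5AM and 4.62 and 5.13 CPM at 5PM. That range was wider than the 6.97 to 17.7 CPM at the shared times in that collection. cpt1ab had 193 and 197 CPM at 8AM, 153 and 164 at 2PM, 152 and 162 at 8PM and 153 and 147 at 2AM in 24-month fish. In 12-month fish cpt1ab had 225 and 219.7 CPM at 8AM, 117 and 127 at 2PM, 93.3 and 95.7 at 8PM and 250.1 and 252 at 2AM. The course was nearly flat in 24-month fish (amplitude 0.16) and had an amplitude of 0.80 in 12-month fish. Its downward deviation at 2AM passed (-0.76 ± 0.08, adjusted p 0.00952), 1 of the 2 genes to do so. The other libraries of 24-month fish had 208 and 269 CPM at 5AM and 73.9 and 131 CPM at 5PM, a wider range than at the 4 shared times.

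UHRF2, an epigenetic regulator, belonged to the same class, with 35.6 and 35.0 CPM in 24-month fish, against 13.8 and 13.2 CPM in 12-month fish at 8PM. e2f4, a cell-cycle transcription factor, had 67.9 and 61.1 CPM in 24-month fish, against 37.6 and 32.9 CPM in 12-month fish at 2PM. At 8PM e2f4 had 30.2 and 37.8 CPM in 24-month fish, against 56.0 and 49.3 CPM in 12-month fish. Its order thus turned between the times, although its peaks lay under 3 h apart. acsbg2 (an acyl-CoA synthetase), gale (of galactose metabolism), pamr1 and si:ch1073-55a19.2 were the others of the 8 with the smallest p. Their 8PM deviations were -1.16, -0.94, 1.13 and -1.39. Despite its downward deviation, gale was higher in 24-month fish at 8PM (61.5 and 58.2 CPM, against 36.1 and 36.1 CPM in 12-month fish). All 8 were chosen by their p in these same libraries.

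Among the 47 genes with a larger wave in 24-month fish, several were high at 8AM. itpkcb, an inositol trisphosphate kinase, had 104 and 87.2 CPM in 24-month fish, against 34.6 and 36.0 CPM in 12-month fish at 8AM. At 8PM itpkcb had 36.5 and 36.5 CPM in 24-month fish, against 29.3 and 32.7 CPM in 12-month fish, so the groups lay much closer. rfx2, a transcription factor of cilium formation, had 32.3 and 24.5 CPM in 24-month fish, against 7.87 and 6.39 CPM in 12-month fish at 8AM, a deviation of 1.66 ± 0.22 (adjusted p 0.0328). At the other times rfx2 stayed below 8 CPM in every library of these groups. irs2b, an insulin receptor substrate, had 281 and 180.2 CPM in 24-month fish, against 43.4 and 50.6 CPM in 12-month fish at 8AM. At 2AM irs2b had 208 and 349 CPM in 24-month fish, against 42.7 and 42.5 CPM in 12-month fish. Its amplitude was 1.56 in 24-month fish and 0.28 in 12-month fish, and its interaction (adjusted p 0.0118) was lost without 12-month 8PM replicate A (0.0522).

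mat2ab, of S-adenosylmethionine synthesis, had a 24-h amplitude of 0.99 in 24-month fish and 0.03 in 12-month fish. In 12-month fish it was not flat but alternated, with 371 and 417 CPM at 8AM, 289 and 275 at 2PM, 448 and 363 at 8PM and 294 and 286 at 2AM, which a 24-h cosine cannot follow. At 8PM mat2ab had 139 and 181 CPM in 24-month fish, against 448 and 363 CPM in 12-month fish. Its interaction was lost without 12-month 8PM replicate A (adjusted p 0.0994) and without 24-month 8PM replicate C. ypel3 had 38.5 and 22.9 CPM in 24-month fish, against 9.14 and 12.4 CPM in 12-month fish at 8PM, and its interaction was lost without 12-month 8PM replicate A (adjusted p 0.0587). rsad2, si:ch211-221f10.2 and PNPLA8 (1 of many) were the others of the 8. The gene si:ch211-221f10.2 also deviated upward at 8AM, by 1.40 ± 0.19 (adjusted p 0.0448).

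Lists of genes by function were read at 8PM beside all genes tested, of which 8.3% deviated upward and 10.6% downward. Of 28 ER stress and folding genes, 0 deviated upward and 10 (35.7%) downward, with a list median of -0.41, beside 0.04 over all genes. At 2PM 8 of the 28 deviated upward and 0 downward, beside 1.19% upward over all genes. Nearly all 2PM calls over all genes were lost without 12-month 2PM replicate A or B, or 24-month 2PM replicate C. The 2PM part of this list therefore rested on single libraries. calr3b, a calreticulin, had 737 and 649.7 CPM in 24-month fish, against 229 and 264 CPM in 12-month fish at 2PM. At 8PM calr3b had 495 and 576 CPM in 24-month fish, against 444 and 446 CPM in 12-month fish, so the groups were far apart at 2PM and closer at 8PM. dnajb11, an ER co-chaperone, had 137 and 118 CPM in 24-month fish, against 48.7 and 46.6 CPM in 12-month fish at 2PM. At 8PM dnajb11 had 55.9 and 76.6 CPM in 24-month fish, against 95.6 and 83.3 CPM in 12-month fish, the opposite order. Leaving out 1 library gave 3 to 16 downward calls, lowest without 12-month 8PM replicate A and highest without 24-month 2AM replicate C.

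Cytosolic chaperones went the same way, with 7 (35%) of 20 heat shock and chaperone genes downward and 0 upward. hsp90aa1.2, a cytosolic Hsp90, had 106 and 83.5 CPM in 24-month fish, against 41.2 and 26.2 CPM in 12-month fish at 2PM. At 8PM hsp90aa1.2 had 25.4 and 35.9 CPM in 24-month fish, against 68.4 and 48.4 CPM in 12-month fish. The groups did not overlap at either time. DNAJA4 and dnajb1a, co-chaperones of Hsp70, had 8PM deviations of -1.13 and -0.94. The interactions of hsp90aa1.2, DNAJA4 and dnajb1a were each lost in some of the fits that left out a library. Leaving out 1 library gave 3 to 12 downward calls in this list, with the same libraries at the ends.

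Of 19 fatty acid synthesis genes, 10 (52.6%) deviated downward at 8PM and 1, acacb, upward, with a list median of -0.62. acaca, the acetyl-CoA carboxylase of the committed step, had 169.9 and 156 CPM in 24-month fish, against 67.1 and 62.8 CPM in 12-month fish at 2PM. At 8PM acaca had 105 and 94.9 CPM in 24-month fish, against 124 and 110.2 CPM in 12-month fish. Its 8PM deviation was -1.12 ± 0.11 (adjusted p 0.000607), and at 8AM, 2PM and 2AM acaca was higher in 24-month fish with no overlap. srebf1, a master regulator of these enzymes, had 101 and 106 CPM in 24-month fish, against 137 and 125 CPM in 12-month fish at 8PM, and was higher in 24-month fish at the other 3 times. elovl6, a fatty acid elongase, deviated by -1.38 ± 0.20 at 8PM. lpin1, a phosphatidate phosphatase of the same list, had 3.33 and 6.17 CPM in 24-month fish, against 19.9 and 21.2 CPM in 12-month fish at 2PM, the largest downward deviation at that time among genes with a symbol and a mean of at least 5 CPM (-2.45 ± 0.54, adjusted p 0.039). The lpin1 interaction was lost in 13 of the 16 fits, with an adjusted p of up to 0.147 (without 24-month 2PM replicate C), and the list's downward calls ranged from 7 to 11.

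Sterol synthesis split. Of 23 genes tested, 2 (8.7%) deviated upward at 8PM and 6 (26.1%) downward. fdft1 and hsd17b7 were the upward ones. insig1, the sterol-sensing brake on this pathway, had 12.8 and 11.1 CPM in 24-month fish, against 13.9 and 15.2 CPM in 12-month fish at 8PM. At 8AM insig1 had 8.61 and 8.07 CPM in 24-month fish, against 2.99 and 2.24 CPM in 12-month fish, so it was higher in 24-month fish there and lower at 8PM. idi1, isopentenyl-diphosphate isomerase, deviated at 2PM (0.63 ± 0.11, adjusted p 0.0223), and its interaction was lost in 4 of the 16 fits. Leaving out 1 library gave 2 to 6 downward calls, lowest without 12-month 8PM replicate A.

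Genes of the fasting response went both ways. Of 18 tested, 5 (27.8%) deviated upward at 8PM and 3 (16.7%) downward. fbxo32, irs2a, cpt1b, cpt1ab and pdk4 were upward, with deviations of 0.63 to 1.67, and irs2b and pdk3a were among the downward ones. angptl4, an inhibitor of lipoprotein lipase, parted at 2PM, with 160.01 and 118 CPM in 24-month fish, against 60.8 and 67.8 CPM in 12-month fish, a deviation of 1.26 ± 0.19 (adjusted p 0.0189). At 8AM angptl4 had 106 and 88.7 CPM in 24-month fish, against 183 and 186 CPM in 12-month fish, the opposite order. Its peak lay at 12.6 h in 24-month fish and 5.35 h in 12-month fish, so it was among the 12 genes that peaked later in 24-month fish. The other libraries of 24-month fish go against a single peak near that hour, with 133 and 172 CPM at 5AM, 72.2 and 63.7 at 11AM and 39.0 and 54.8 at 5PM. Without 12-month 8PM replicate A there were 0 downward calls in this list.

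**Figure D5:**
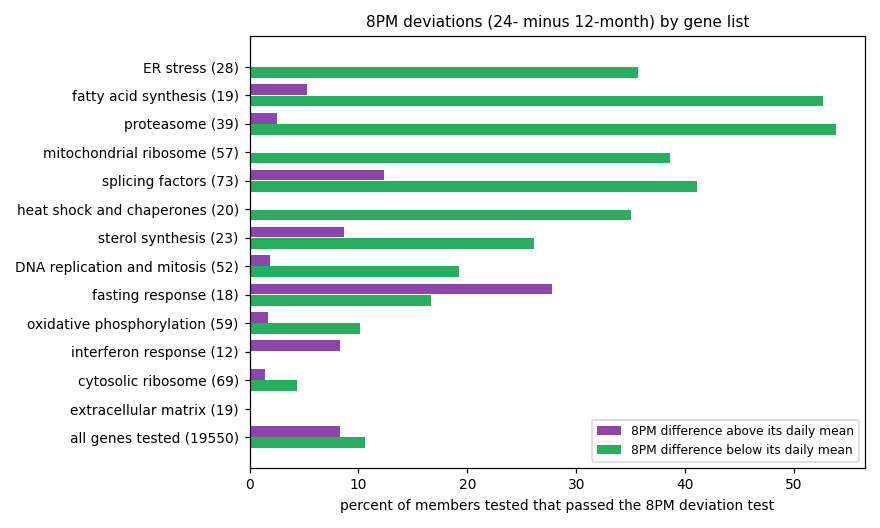
Percent of each list's members tested (x axis, number tested in brackets) whose 8PM difference 24-month minus 12-month passed the test above (purple) or below (green) its daily mean. Proteasome, fatty acid synthesis, splicing, mitochondrial ribosome, ER stress and heat shock lists lie at 35 to 53.8% below, beside 10.6% of all genes tested.

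Proteasome genes that passed the 8PM deviation test mostly deviated downward. Of 39 proteasome genes, 21 (53.8%) deviated downward at 8PM and 1, psmd10, upward. psmd11b, a subunit of the regulatory lid, had 37.6 and 54.5 CPM in 24-month fish, against 72.2 and 61.6 CPM in 12-month fish at 8PM. At 8AM psmd11b had 44.1 and 37.2 CPM in 24-month fish, against 14.4 and 14.4 CPM in 12-month fish, the opposite order. psma2 and psme3 deviated by -0.56 and -1.83, and their interactions were each lost in some of the fits that left out a library. Despite its downward deviation, psma2 was higher in 24-month fish at 8PM (125 and 149 CPM, against 107 and 106 CPM in 12-month fish). Upstream of the proteasome, uba1, the main ubiquitin-activating enzyme, had 200.1 and 217 CPM in 24-month fish, against 343 and 328 CPM in 12-month fish at 8PM. The deubiquitinase usp10 had 39.0 and 50.00 CPM in 24-month fish, against 135 and 115 CPM in 12-month fish at the same time. Leaving out 1 library gave 9 (without 24-month 8PM replicate C) to 27 (without 24-month 2AM replicate C) downward proteasome calls.

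Mitochondrial and cytosolic ribosome genes differed in their counts. Of 57 mitochondrial ribosome genes, 22 (38.6%) deviated downward at 8PM and 0 upward. Of 69 genes matched by name as cytosolic ribosome, 3 (4.35%) deviated downward and 1 upward, and these were rps6kc1, rps6ka3b and rps6ka4, which are kinase genes, and rpl7l1, a ribosomal protein-like gene. The interactions of rpl7l1 and rps6ka3b were each lost in most of the fits that left out a library. The difference between the lists was not tested. mrpl20, of the large mitochondrial subunit, had 57.3 and 44.5 CPM in 24-month fish, against 18.4 and 17.8 CPM in 12-month fish at 2PM. At 8PM mrpl20 had 18.6 and 24.2 CPM in 24-month fish, against 41.3 and 31.9 CPM in 12-month fish, the opposite order. MRPS15 and mrpl44 had 8PM deviations of -0.90 and -0.56. Without 24-month 8PM replicate C, 6 mitochondrial ribosome genes deviated downward, and without 24-month 2AM replicate C 28 did. Of 59 oxidative phosphorylation genes, 6 deviated downward and 1 upward at 8PM, a downward share close to the 10.6% of all genes tested. The interaction was called for 5.08% of this list, beside 11.8% of all genes, so the list did not stand out. The 3 that passed the interaction, uqcrc2a, uqcrc1 (both of complex III) and SDHB (of succinate dehydrogenase), had 8PM deviations of -0.93, -0.47 and -0.50. Their interactions were lost in 2, 10 and 10 of the 16 fits, and leaving out 1 library gave 1 to 7 downward calls in the list.

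Of 73 splicing genes, 30 (41.1%) deviated downward and 9 (12.3%) upward at 8PM. sf3b3, of the U2 snRNP, had 134 and 153 CPM in 24-month fish, against 186 and 182 CPM in 12-month fish at 8PM. At 8AM sf3b3 had 117 and 117 CPM in 24-month fish, against 71.6 and 64.8 CPM in 12-month fish, the opposite order. snrpa and sf3b4 deviated by -1.37 and -1.29. The upward genes included clk2a and clk4a, kinases of splicing factors, and srsf5a and srsf5b. Downward calls in this list ranged from 13 (without 24-month 8PM replicate C) to 37 (without 24-month 2AM replicate C).

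Of 52 replication and mitosis genes, 10 (19.2%) deviated downward and 1, smc4, upward at 8PM. cdk2, a cyclin-dependent kinase, had 22.9 and 19.997 CPM in 24-month fish, against 8.81 and 9.55 CPM in 12-month fish at 2PM. At 8PM cdk2 had 9.03 and 11.7 CPM in 24-month fish, against 16.5 and 15.5 CPM in 12-month fish, the opposite order. mcm6, of the replicative helicase, had 99.4 and 103 CPM in 24-month fish, against 37.1 and 42.9 CPM in 12-month fish at 2PM. At 8PM mcm6 had 35.5 and 54.8 CPM in 24-month fish, against 51.0 and 51.6 CPM in 12-month fish, where the groups overlapped. pcna, the replication clamp, deviated by -0.71 ± 0.14 at 8PM. It was nevertheless higher in 24-month fish at 8PM (106 and 141 CPM, against 90.3 and 91.8 CPM in 12-month fish). The interactions of mcm6 and pcna were lost in 3 and 5 of the 16 fits, with adjusted p of up to 0.075 and 0.103 (without 12-month 8PM replicate A), and the list's downward calls ranged from 4, without that library, to 12.

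Interferon genes passed the interaction in 7 of 12 cases (58.3%, beside 11.8% of all genes), with 1 upward and 0 downward at 8PM. rsad2 (viperin, an antiviral protein) had 36.0 and 32.7 CPM in 24-month fish, against 4.92 and 6.78 CPM in 12-month fish at 8AM. At 2PM rsad2 had 14.2 and 12.7 CPM in 24-month fish, against 9.22 and 8.24 CPM in 12-month fish, much closer together. usp18, a brake on interferon signalling, had 17.1 and 13.8 CPM in 24-month fish, against 2.65 and 3.55 CPM in 12-month fish at 8AM. The 8AM deviations of rsad2 and usp18 did not pass (adjusted p 0.0971 and 0.0855). irf7, the factor that induces interferon, was the upward one, with 27.4 and 23.4 CPM in 24-month fish, against 8.497 and 8.37 CPM in 12-month fish at 8PM. The interactions of usp18 and irf7 were each lost in some of the fits that left out a library. psmb10, counted in this list, is also in the proteasome list. Leaving out 1 library gave 0 to 9 interaction calls.

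Interaction calls in the remaining lists were read beside 11.8% of all genes. Of 27 immediate early genes 1 (3.7%) passed the interaction (klf4, adjusted p 0.0392, lost in 10 of the 16 fits), and of 12 inflammation genes 1 (8.33%) did (nfkbiab, an NF-kB inhibitor). Of 11 glucocorticoid-response genes klf9 and ddit4, an mTORC1 inhibitor, passed (18.2%), the call of ddit4 (adjusted p 0.0361) being lost in 12 of the 16 fits. Of 19 extracellular matrix genes 1 (5.26%) passed. It was serpinh1b, the collagen chaperone, with 223 and 119.8 CPM in 24-month fish, against 65.1 and 58.9 CPM in 12-month fish at 2PM, the largest upward deviation at that time by the same rule (1.72 ± 0.29, adjusted p 0.0223). papss2a, which makes the sulfate donor, came next with 37.7 and 24.1 CPM in 24-month fish, against 12.9 and 16.6 CPM in 12-month fish at 2PM. In the extracellular matrix list 0 genes deviated upward at 8PM, but 10 did without 24-month 8PM replicate D. The interactions of serpinh1b and papss2a were lost in 4 and 9 of the 16 fits, with adjusted p of up to 0.0946 and 0.13.

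Cell type markers were also read beside 11.8% of all genes. The interaction was called for 0 of 25 skeletal muscle, 0 of 12 leukocyte, 0 of 7 melanophore, 0 of 14 liver, 0 of 13 scale osteoblast, 0 of 8 nerve and glia, and 0 of 5 mucous cell markers. It was called for 1 of 9 keratinocyte (11.1%), 2 of 10 erythrocyte (20%), 2 of 13 xanthophore and iridophore (15.4%), and 1 of 3 ionocyte markers (33.3%). In lists this short, 1 call moves the share widely. The 10 erythrocyte markers (10 above 1 CPM) had a median 8PM deviation of -1.17, and summed to 415 to 550 CPM at 8PM in 24-month fish and 593 to 726 CPM at 8PM in 12-month fish. Their sums at 2AM were 492 to 494 CPM in 24-month fish and 277 to 295 CPM in 12-month fish. The 14 liver markers (8 above 1 CPM) had a median 2PM deviation of 1.45, and summed to 531 to 639 CPM at 2PM in 24-month fish and 850 to 854 CPM at 2PM in 12-month fish. The part of these markers in the 8PM and 2PM results was not tested.

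Leading genes outside the wave classes had their largest deviation at 8PM, except SLC43A2, which had it at 2PM. SLC43A2, an amino acid transporter, had 51.7 and 57.7 CPM in 24-month fish, against 127 and 104 CPM in 12-month fish at 2PM. At 8PM SLC43A2 had 174 and 152 CPM in 24-month fish, against 72.6 and 76.0 CPM in 12-month fish, the opposite order. Its peak lay at 2.96 h in 24-month fish and 5.55 h in 12-month fish, under the 3 h of the peak-shift rule. tgfbr2b, a TGF-beta receptor, deviated by 0.75 at 8PM, and plxnb3 (a semaphorin receptor), slc25a35 (a mitochondrial carrier) and baz1b (a chromatin protein) by -0.98, -1.79 and -1.02. With acaca, uba1 and usp10 these were the 8 with the smallest p in these same libraries.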

How the data were processed

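Raw counts of reads per gene were deposited by the authors as 1 table of 24 skin libraries. Per the labels, TopHat2 and featureCounts were used, with no version named, and the study's methods name Ensembl gene models. Table columns were matched to samples by the names in the labels, and none was left unassigned. Symbols came from the study's supplementary gene lists, read from page images, which name 11928 of the 24209 genes and may hold spelling errors. The study's methods describe libraries of single fish for skin, but they do not name the collections, so this may not cover both. The p-values measure the spread between these libraries.

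Counts were filtered (filterByExpr over 8 groups), scaled by TMM (factors 0.963 to 1.048) and fitted with edgeR 4.0.16 (quasi-likelihood) in R 4.3.3. Tests were the interaction, its 24-h cosine part, the deviation at each clock time and the plain differences, each adjusted over 19550 genes. Waves used log2(CPM + 0.5). Simulated data had the same dispersion (0.05) in every gene and library. For the interaction, 200 of 19566 genes were given a wave of amplitude 1 moved by 6 h, and 195 were recovered and 8 others called. For the wave test in the other 24-month libraries, 196 of 200 were recovered and 5 others called. The real replicates were uneven, so these counts do not give the error rate in these data. No 2 libraries of a group agreed within sampling noise (chi-square per degree of freedom at least 13.7).

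The members, gene lists and tests were chosen with earlier results of these data known. Named genes were the interaction genes of the clock lists, the 8 with the smallest p in each wave class, the 3 highest and 3 lowest deviations at each clock time (with a symbol and a mean of at least 5 CPM), and the 3 with the smallest p in each other function list. Other genes were named after their values were seen. Where no loss is given for a named gene, its call may still have failed in a fit that left out a library. Alternatives were DESeq2 1.42.0, no TMM, other filters, a dispersion shared over more libraries, a replicate block, other thresholds and leaving out each library.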

Additional observations from a re-analysis of the deposited data

Results flagged for a closer look

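The 2302 genes of the interaction of library year with clock time differed between the collections in the shape of their time course (edgeR interaction test, 11.8% of genes tested). 1795 of them had their largest deviation at 8PM.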

How the results depend on the processing

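No named gene's largest deviation reversed. DESeq2 called 4367 interaction genes, 436 deviations at 8AM, 1725 at 2PM and 133 at 2AM, 3120 genes by the cosine part, and 109 and 194 genes with a larger wave in 24-month and 12-month fish. With a dispersion shared by all 24 libraries these were 472, 1, 38 and 0, then 167, 7 and 43, with 1397 deviations at 8PM and 220 peak shifts. Without 24-month 5PM replicate A (23 libraries, chosen after seeing the data) the interaction called 2155 genes, with 1 deviation at 8AM, 1 at 2AM and 30 larger waves in 24-month fish. At an amplitude threshold of 0.3 there were 1163 peak shifts, 106 larger waves in 24-month fish and 281 in 12-month fish, at 1 there were 29, 10 and 8, and at a peak hour threshold of 4 h there were 273 peak shifts. The wave test in the other 24-month libraries called 1 gene without TMM, 2 without a filter and 150 with DESeq2.

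Leaving out 1 library gave 249 to 6561 interaction genes, 0 to 811, 2 to 2126, 1416 to 6069 and 0 to 2935 deviations at 8AM, 2PM, 8PM and 2AM, 179 to 5258 genes by the cosine part, 110 to 752 peak shifts, 8 to 442 and 38 to 322 larger waves in 24-month and 12-month fish, and 0 to 16 genes in the wave test. The cause of these differences was not tested. In 23 of 23 settings most deviations were at 8PM, and 90.7 to 98.6% of peak shifts were earlier in 24-month fish. Without TMM, 49.3% of 8PM deviations were downward, against 56.1%.

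Replicate letters were not taken as pairs. Correlations of same-letter libraries ran from -0.018 to 0.294 in 24-month fish (4 of 6 above 0.1). In 12-month fish they ran from 0.101 to 0.224 (6 of 6 above 0.1). A shared replicate effect therefore cannot be dismissed in either collection. With a replicate block 2131 genes passed the interaction, 1880 of them among the 2302, 22 deviated at 8AM, and 4 named genes were not called (adjusted p 0.051 for CLOCKB, 0.0539 for nfil3, 0.053 for ddit4 and 0.0514 for rps6ka3b). Of the 84 named genes 25 were called under every setting. With 2 libraries a group, the spread within groups limits every test.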
